A study of Mus musculus with 23 samples.

Results

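Entry into the cell cycle was followed through the RNA of 10 G1 genes, Ccnd1, Ccnd2, Ccnd3, Ccne1, Ccne2, Cdk4, Cdk6, Cdkn1a, Cdkn1b and Rb1. They were chosen by name, as the D-type and E-type cyclins, the kinases of the D-type cyclins, a pair of CDK inhibitors and the pocket protein RB1, and all 10 were present among the 23725 lines of the count table. D-type cyclins, which growth signals induce, bind CDK4 or CDK6 and begin to phosphorylate RB1, the protein that holds E2F transcription factors in check. E-type cyclins with CDK2 complete that step at the entry into S phase, and CDKN1A (p21) and CDKN1B (p27) inhibit these kinases. Pluripotent cells of the early mouse embryo divide fast and are known for a short G1 phase.

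The study asked what TET1, an enzyme that oxidises methylated cytosine in DNA, does in each lineage of the mouse embryo shortly after implantation. At stage E6.25 the extra-embryonic tissue (ExE) and the epiblast (E), which gives rise to the embryo proper, were separated and their polyadenylated RNA was sequenced. The genotypes were Tet1gt/gt, which carries a gene trap on both alleles of Tet1, Tet1gt/wt, which carries it on 1 allele, and wild type (wt). ExE gave 3 Tet1gt/gt, 4 Tet1gt/wt and 4 wt libraries, since 1 homozygous ExE pool was lost, and E gave 4 libraries of each genotype. Each library, called a pool below, held the lysates of 6 or more embryos taken from 2 to 3 litters and combined once their genotypes had been read. Where an E and an ExE pool of a genotype carry the same number, the labels say that they came from the same litters for 3 of the 4. Neither the insertion site of the trap nor the cells that lack TET1 protein is given in the labels.

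Total counts ran from 4912215 to 9494814 per library, and all 10 genes passed the filter on low counts in each comparison. Levels are CPM (the count relative to the size of its library) after scaling of the libraries by TMM, which corrects for differences in composition. A count of 0 allows up to 3 counts, or 0.316 to 0.611 CPM depending on the library, and such floors cover counting error only. Tet1 had 21.5, 24.2 and 37.8 CPM in the Tet1gt/gt ExE pools and 77.1 to 110 CPM in the wt ExE pools, and 55.3 to 113 CPM in Tet1gt/gt E, against 127 to 197 CPM in wt E. Every Tet1gt/gt pool thus lay below every wt pool of its tissue, although the adjusted p was 0.0704 in ExE and 0.92 in E (edgeR quasi-likelihood test). In 3 libraries (ExE Tet1gt/gt 3, E Tet1gt/gt 3 and E Tet1gt/wt 4) short and GC-rich transcripts read higher, with a slope of 0.602 to 0.675 log2 units per 10% of GC content, against -0.326 to 0.211 in the other 20. The trophoblast list (10 genes) averaged 7.17 to 7.82 log2 CPM in ExE and 0.26 to 5.48 in E, and all 10 of its genes were higher in ExE. The epiblast list (10 genes) averaged 5.01 to 7.50 log2 CPM in ExE and 7.95 to 8.35 in E, with 7 of its genes lower in ExE and 1, Zfp42, higher. The dissected tissues therefore carried the markers of their labels, and each also carried RNA of the other list in amounts that differed between pools. Utf1 and Pou3f1 of the epiblast list were not called between the tissues (log2 fold change -0.31 and -0.12, adjusted p 0.0963 and 0.627, edgeR). With these and Zfp42 in it, the level of that list in ExE does not measure epiblast RNA alone.

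Per kilobase of exon, Cdk4 and Ccne1 stood highest among the 10 genes in both tissues. In ExE the order began with Cdk4 at 212 ± 52.0 and Ccne1 at 146 ± 14.7 CPM per kb (SD, n = 11), whose ranges overlapped. Ccnd3 followed at 46.3 ± 9.70 CPM per kb, apart from its neighbours on either side, and Ccne2 at 6.17 ± 2.53. The remaining 6, from Ccnd1 at 3.43 ± 2.88 CPM per kb to Cdk6 at 0.223, overlapped with their neighbours. In E, Cdk4 at 284 ± 53.1 and Ccne1 at 150 ± 18.4 CPM per kb (SD, n = 12) were each apart from the next gene in the order. Ccnd1 at 18.3 ± 4.18 and Ccnd3 at 17.4 ± 6.64 CPM per kb overlapped in E. Ccne2 at 5.41 ± 1.62 CPM per kb came next, apart from Ccnd3, and the lowest was Rb1 at 0.521.

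In Tet1gt/gt, Tet1gt/wt and wt embryos alike, Ccnd3 was higher in ExE than in E, while Ccnd1 and Ccnd2 were lower. Averaged over the 3 genotypes, 6 of the 10 genes passed an adjusted p of 0.05, 1 higher (Ccnd3, 2.68-fold) and 5 lower in ExE (Ccnd2 7.64-fold, Ccnd1 5.74-fold, Cdk6 3.91-fold, Cdkn1a 1.95-fold and Cdk4 1.32-fold). Among all 13595 genes tested 46.1% passed, 22.1% higher and 23.9% lower in ExE, so a tissue difference as such was common. The median log2 fold change was -0.35 over the 10 genes and -0.02 over all genes tested. In bulk tissue, fewer cells of a type and less RNA per cell cannot be told apart.

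**Figure D1:**
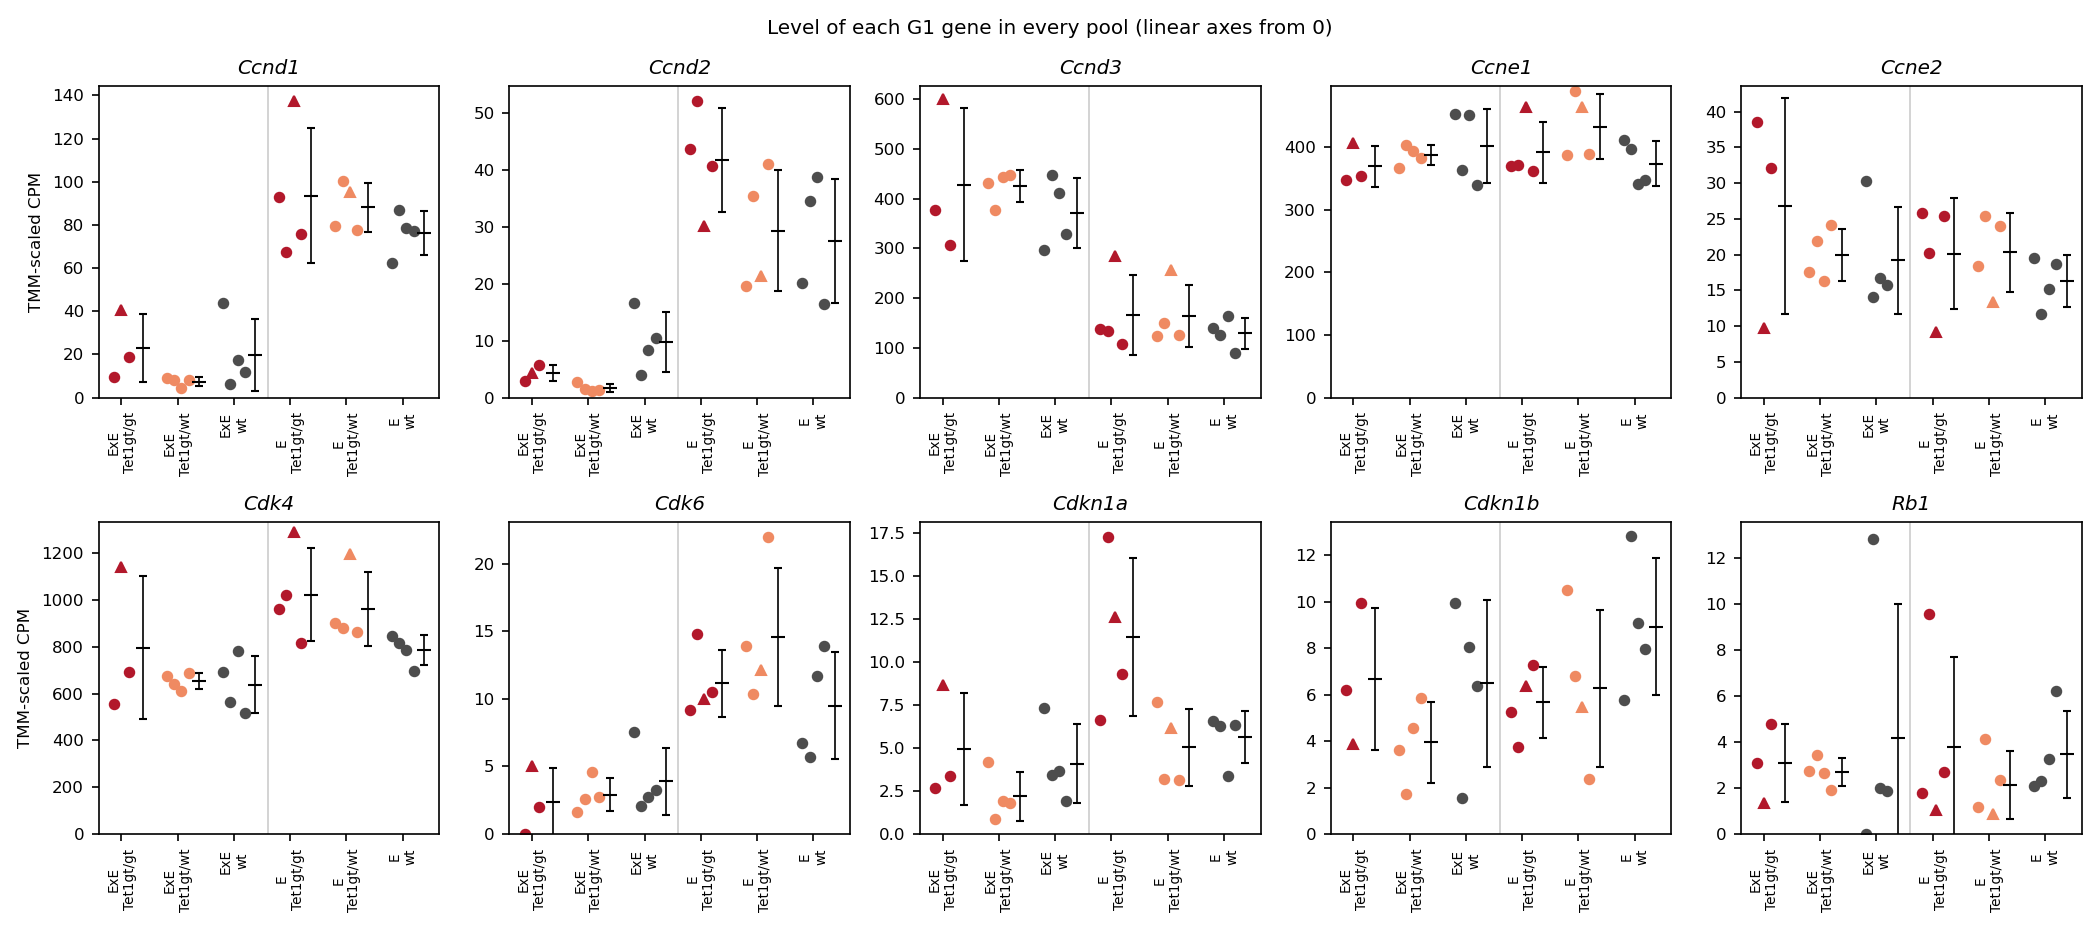
Level of each G1 gene in each pool (CPM, linear axes from 0), with ExE left of E and, within a tissue, Tet1gt/gt, Tet1gt/wt and wt in that order. Points are pools, triangles mark the 3 libraries with steep GC and length slopes, and bars give the mean ± SD, cut at 0. In all 11 ExE pools Ccnd1 is below and Ccnd3 above every E pool, and Ccnd2 is below every E pool in all ExE pools but wt 1.

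Ccnd1 (GRCm38 chr7:144929931-144939925, minus strand) encodes cyclin D1, the D-type cyclin most often tied to growth-factor and WNT signals. In ExE it had 9.45, 40.3 and 18.8 CPM in Tet1gt/gt, 8.99, 8.03, 4.35 and 8.31 CPM in Tet1gt/wt, and 43.8, 6.31, 17.5 and 11.6 CPM in wt. In E it had 92.7, 67.6, 137.6 and 75.9 CPM in Tet1gt/gt, 79.4, 100.5, 95.2 and 77.6 CPM in Tet1gt/wt, and 62.3, 87.0, 78.7 and 77.4 CPM in wt. The tissues did not overlap, and wt pool 1 and Tet1gt/gt pool 3 stood highest among the ExE pools. The log2 fold change of ExE over E, averaged over genotypes, was -2.52 ± 0.28 (SE), with an adjusted p of 1.95e-07 by edgeR. No source names the strand setting of the counting, and 23.4% of the exon bases of Ccnd1 overlap exons of LTO1 on the other strand, whose reads cannot be told apart from it there.

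Ccnd2 (chr6:127125162-127152193, minus strand) encodes cyclin D2, which shares the kinases of cyclin D1. In ExE it had 2.97, 4.33 and 5.79 CPM in Tet1gt/gt, 2.74, 1.58, 1.23 and 1.39 CPM in Tet1gt/wt, and 16.6, 3.88, 8.31 and 10.5 CPM in wt. In E it had 43.7, 52.2, 30.2 and 40.7 CPM in Tet1gt/gt, 19.6, 35.4, 21.3 and 41.1 CPM in Tet1gt/wt, and 20.1, 34.5, 38.8 and 16.4 CPM in wt. The tissues overlapped by a single pool, ExE wt 1, which at 16.6 CPM lay just above the lowest E pool, E wt 5. The log2 fold change of ExE over E was -2.93 ± 0.25 (SE) with an adjusted p of 9.19e-09 (edgeR), the largest of the 10 genes in size.

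Ccnd3 (chr17:47505051-47599691, plus strand) encodes cyclin D3, the third D-type cyclin. It had 377, 600.5 and 307 CPM in Tet1gt/gt ExE, 431, 378, 443 and 447.5 CPM in Tet1gt/wt ExE, and 297, 447.5, 412 and 328 CPM in wt ExE. In E it had 138, 133, 285 and 107 CPM in Tet1gt/gt, 123, 149, 255.5 and 126 CPM in Tet1gt/wt, and 140, 125, 163 and 89.5 CPM in wt. Every ExE pool lay above every E pool, and the 3 libraries with steep GC slopes (600.5, 285 and 255.5 CPM) were the highest of their tissues. The log2 fold change of ExE over E was 1.42 ± 0.17 (SE; adjusted p 6.11e-07, edgeR), and 1.54 without those 3 libraries. Ccnd3 was the single member called higher in ExE, and 1 of its start regions, GRCm38.p6 chr17:47504801-47505100 on the plus strand, is shown for that reason (RefSeq, 250 bases before to 50 after the start). The search was for exact matches on both strands to an E-box (CACGTG, bound by MYC among others), an E2F motif (TTTNNCGC), a pair of CATG 6 bases apart as in p53 sites, and a GC box (GGGCGG). Capitals in the sequences here and below mark E-box, E2F and CATG-pair matches, and GC boxes were counted without capitals. The window of Ccnd3 held 2 GC boxes and no match to the other motifs.
Ccnd3 start region: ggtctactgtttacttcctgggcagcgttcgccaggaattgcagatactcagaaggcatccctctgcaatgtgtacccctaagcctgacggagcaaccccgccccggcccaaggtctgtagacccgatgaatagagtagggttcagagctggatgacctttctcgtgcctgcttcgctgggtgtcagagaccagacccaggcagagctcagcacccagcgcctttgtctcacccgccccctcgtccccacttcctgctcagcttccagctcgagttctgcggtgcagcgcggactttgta

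The D-type cyclin RNA thus had a different make-up in the tissues. Ccnd3 was 92.0 ± 6.46% of the summed D-type CPM per kb in ExE (range 75.4 to 97.95%, SD, n = 11) and 43.6 ± 6.24% in E (range 35.95 to 56.4%, n = 12). Ccnd1 made up 6.79 ± 5.49% in ExE and 47.1 ± 5.40% in E. Ccnd2 made up 1.22 ± 1.17% in ExE and 9.26 ± 3.61% in E. The ranges of the tissues did not overlap for any of these 3 shares. The summed level was 50.3 ± 10.2 CPM per kb in ExE and 39.2 ± 10.1 CPM per kb in E, with overlapping ranges. With levels divided by the longest transcript instead, the share of Ccnd3 in E was 57.4%, so its order beside Ccnd1 in E rests on the length used. The summed level rests on it too, since Ccnd3 has 8775 merged exon bases but a longest transcript of 3858. The sum per length of the longest transcript is not given here.

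**Figure D2:**
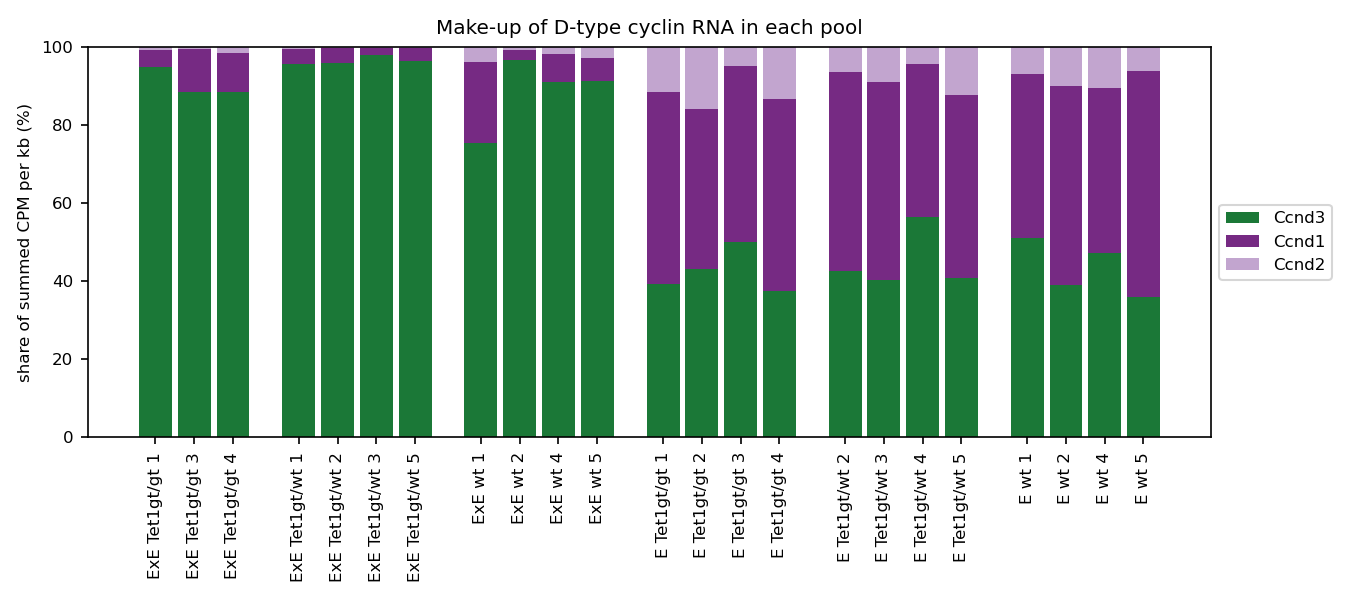
Share of Ccnd3, Ccnd1 and Ccnd2 in the summed D-type cyclin level (CPM per kb of merged exons, in percent) in each pool, with ExE pools on the left and E pools on the right. Ccnd3 takes 75.4 to 97.95% in ExE and 35.95 to 56.4% in E.

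Cdk4 (chr10:127063534-127067920, plus strand) encodes the kinase partner of the D-type cyclins and was the most abundant of the 10 genes per length. It had 556, 1141 and 691 CPM in Tet1gt/gt ExE, 677, 641, 611 and 689 CPM in Tet1gt/wt ExE, and 693, 563, 781 and 516 CPM in wt ExE. In E it had 962, 1020, 1292 and 818 CPM in Tet1gt/gt, 904, 882, 1198 and 865 CPM in Tet1gt/wt, and 847, 815, 787.5 and 695 CPM in wt. The tissues overlapped, and the highest value of each tissue came from a library with a steep GC slope (ExE Tet1gt/gt 3 and E Tet1gt/gt 3). The log2 fold change of ExE over E was -0.41 ± 0.11 (SE; adjusted p 0.00473, edgeR), and -0.45 without the 3 steep libraries. Of its exon bases, 19.7% overlap exons of Tspan31 on the other strand.

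Cdk6 (chr5:3341485-3531008, plus strand) encodes the other kinase of the D-type cyclins. In ExE it had 0, 5.01 and 2.01 CPM in Tet1gt/gt, 1.64, 2.58, 4.58 and 2.77 CPM in Tet1gt/wt, and 7.56, 2.10, 2.73 and 3.25 CPM in wt. The count of 0, in ExE Tet1gt/gt pool 1, allows up to 0.398 CPM. In E it had 9.20, 14.8, 10.0 and 10.5 CPM in Tet1gt/gt, 13.9, 10.4, 12.1 and 21.9 CPM in Tet1gt/wt, and 6.71, 5.71, 11.7 and 13.9 CPM in wt. All E pools but wt 1 and wt 2 lay above all ExE pools. The log2 fold change of ExE over E was -1.97 ± 0.39 (SE; adjusted p 0.000292, edgeR). Cdk4 still made up 99.9 ± 0.066% (SD) of the summed Cdk4 and Cdk6 level per kb in ExE and 99.7 ± 0.13% in E.

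The start regions of the kinase pair are shown because both genes were lower in ExE while their levels lay far apart. The window of Cdk4, GRCm38.p6 chr10:127063285-127063584 on the plus strand, held 4 E-boxes and 3 GC boxes. The window of Cdk6, chr5:3343643-3343942 on the plus strand, held 1 E-box, 1 E2F motif and no GC box. E-boxes stood in 7.15%, E2F motifs in 5.17% and GC boxes in 35.7% of the 32851 RefSeq start regions of the same length. A match describes letters in the window and not binding.
Cdk4 start region: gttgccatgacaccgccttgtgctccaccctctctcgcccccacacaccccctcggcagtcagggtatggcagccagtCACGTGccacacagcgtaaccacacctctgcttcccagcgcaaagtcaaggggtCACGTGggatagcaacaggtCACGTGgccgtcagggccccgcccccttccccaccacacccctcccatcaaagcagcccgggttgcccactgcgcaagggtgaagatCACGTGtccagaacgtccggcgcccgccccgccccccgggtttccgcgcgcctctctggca
Cdk6 start region: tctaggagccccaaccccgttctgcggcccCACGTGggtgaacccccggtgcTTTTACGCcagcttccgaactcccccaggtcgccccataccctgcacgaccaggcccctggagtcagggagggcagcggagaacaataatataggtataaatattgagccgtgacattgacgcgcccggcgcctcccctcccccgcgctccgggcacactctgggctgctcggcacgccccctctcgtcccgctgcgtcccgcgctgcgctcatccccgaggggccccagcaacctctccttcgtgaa

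The E-type cyclins, which activate CDK2, were not called between the tissues. Ccne1 (chr7:38097984-38107534, minus strand) had a lowest, median and highest level of 339, 383 and 454 CPM over the 11 ExE pools, and 341, 389 and 490 CPM over the 12 E pools. Its log2 fold change was -0.05 ± 0.08 (SE), with an adjusted p of 0.653 (edgeR). The ranges overlapped almost fully, and the fitted difference was smaller than its error. Ccne2 (chr4:11191351-11204779, plus strand) had 9.80, 17.5 and 38.6 CPM as its lowest, median and highest level in ExE, and 9.15, 19.1 and 25.8 CPM in E. Its log2 fold change was 0.21 ± 0.22 (SE), with an adjusted p of 0.468 (edgeR). Of the members, Ccne2 had the lowest GC content, 35.0% of the bases of its longest transcript. The 3 steep libraries had its lowest value in ExE (9.80 CPM) and E values of 9.15 and 13.4 CPM. With a correction for GC and length Ccne2 was called, at a log2 fold change of 0.57 and an adjusted p of 0.00333 (edgeR). Of the exon bases of Ccne2, 17.4% overlap exons of Ints8 on the other strand. Ccne1 made up 95.9 ± 1.75% of the E-type cyclin level per kb in ExE and 96.5 ± 1.13% in E.

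Among the inhibitors, Cdkn1a (chr17:29090976-29100727, plus strand), which encodes p21, a main target of p53, was lower in ExE. It had 2.70, 8.66 and 3.40 CPM in Tet1gt/gt ExE, 4.16, 0.860, 1.90 and 1.81 CPM in Tet1gt/wt ExE, and 7.32, 3.43, 3.68 and 1.89 CPM in wt ExE. In E it had 6.62, 17.3, 12.6 and 9.33 CPM in Tet1gt/gt, 7.65, 3.23, 6.16 and 3.15 CPM in Tet1gt/wt, and 6.57, 6.26, 3.39 and 6.36 CPM in wt. The tissues overlapped, and the 3 highest pools were all of Tet1gt/gt E. The log2 fold change of ExE over E was -0.97 ± 0.32 (SE; adjusted p 0.0167, edgeR). RefSeq lists more than 1 start for Cdkn1a. The upstream one, GRCm38.p6 chr17:29090729-29091028 on the plus strand, is printed since it held a CATG pair, as found in 0.712% of all start regions.
Cdkn1a start region: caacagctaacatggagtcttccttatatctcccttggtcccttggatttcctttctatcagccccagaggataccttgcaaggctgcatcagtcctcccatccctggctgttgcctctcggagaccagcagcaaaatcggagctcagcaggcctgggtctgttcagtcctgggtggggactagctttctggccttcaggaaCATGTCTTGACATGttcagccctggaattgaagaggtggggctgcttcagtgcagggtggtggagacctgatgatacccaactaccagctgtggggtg

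Cdkn1b (chr6:134920401-134925513, plus strand), which encodes p27, had 1.55, 5.86 and 9.96 CPM as its lowest, median and highest level in ExE and 2.36, 6.59 and 12.9 CPM in E. The tissues overlapped, and the log2 fold change was -0.30 ± 0.31 (SE; adjusted p 0.47, edgeR). Rb1 (chr14:73183673-73325822, minus strand), which encodes the retinoblastoma protein, was among the least abundant of the 10 genes. It had 0, 2.68 and 12.8 CPM as its lowest, median and highest level in ExE and 0.880, 2.34 and 9.58 CPM in E. The 0, in ExE wt pool 1, allows up to 0.368 CPM. Its log2 fold change was 0.10 ± 0.55 (SE; adjusted p 0.9, edgeR). RefSeq start regions were matched for 6 of the members, and not for Ccnd1, Ccnd2, Ccne2 and Rb1.

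Within single genotypes, 4 of the 10 genes were called in Tet1gt/gt, against 16.8% of all genes. In Tet1gt/wt 5 were called, against 27% of all genes, and in wt 3, against 17.3%. Ccnd3 was higher and Ccnd1 and Ccnd2 were lower in ExE in all 3 genotypes. For Ccnd3 the log2 fold change of ExE over E was 1.37 ± 0.30 in Tet1gt/gt, 1.38 ± 0.29 in Tet1gt/wt and 1.52 ± 0.29 in wt (SE; adjusted p 0.00429, 0.00111 and 0.00113, edgeR). For Ccnd1 it was -2.05 ± 0.50 in Tet1gt/gt, -3.57 ± 0.48 in Tet1gt/wt and -1.95 ± 0.44 in wt (adjusted p 0.00762, 1.58e-05 and 0.00433, edgeR). For Ccnd2 it was -3.25 ± 0.48 in Tet1gt/gt, -4.07 ± 0.45 in Tet1gt/wt and -1.48 ± 0.39 in wt (adjusted p 0.000167, 2.27e-06 and 0.0117, edgeR). Cdk6 was called in Tet1gt/gt, at -2.30 ± 0.75 (adjusted p 0.0372), and in Tet1gt/wt, at -2.33 ± 0.66 (adjusted p 0.0108), but had -1.28 ± 0.64 and an adjusted p of 0.18 in wt (edgeR). Cdk4 was called in Tet1gt/wt alone, at -0.56 ± 0.19 (adjusted p 0.0309, edgeR). With a block for pools of one number, which includes the wt number not tied to shared litters, the calls were 5 in Tet1gt/gt, 4 in Tet1gt/wt and 4 in wt. In wt the calls over all genes also rose with the block, as given in the last section. For Tet1gt/gt and Tet1gt/wt the share of all genes called with the block is not given here. The block ended the call of Cdk6 in Tet1gt/wt (adjusted p 0.0592) and added Cdk4 in Tet1gt/gt (-0.40, adjusted p 0.0307) and in wt (-0.32, adjusted p 0.0393). The call of Cdk6 in Tet1gt/gt was lost with a GC and length correction (adjusted p 0.105) and without any one of E pools 1, 2 and 4 and ExE pools 1 and 4 of that genotype (adjusted p 0.0516 to 0.1003). The call of Cdk4 in Tet1gt/wt was lost without E pool 4 or any one of the ExE pools of that genotype (adjusted p 0.0502 to 0.114). Over all genes in Tet1gt/wt, 1633 were higher and 2031 lower, and with a GC and length correction 2522 were higher and 2065 lower.

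**Figure D3:**
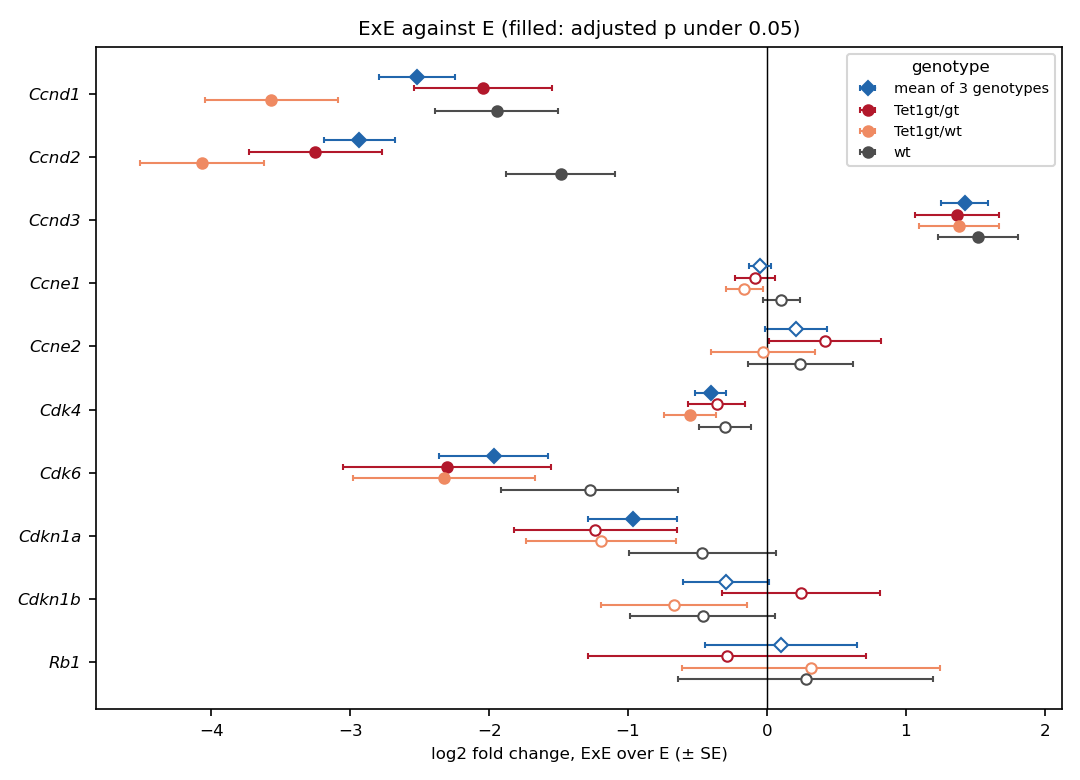
Log2 fold change of ExE over E ± SE for each gene, as the mean of the 3 genotypes (diamonds) and in Tet1gt/gt, Tet1gt/wt and wt (circles), filled where the adjusted p is under 0.05. Ccnd1 and Ccnd2 lie left of 0 and Ccnd3 right of 0 in each genotype, and the mean is -2.52, -2.93 and 1.42.

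Between E and ExE pools of one number, of which the labels tie 3 in each genotype to shared litters and leave 1 of the 4 in wt without that tie, the direction held for each of the 3 D-type cyclins. In 10 of 10 such pairs Ccnd1 and Ccnd2 were lower and Ccnd3 was higher in ExE. For Ccnd1 and Ccnd3 the tissues did not overlap, so any pairing of pools would give this count. For Ccnd2 only a pairing of ExE wt 1 with E wt 5 would not. The count thus adds nothing to the ranges for these genes. The log2 difference of ExE minus E was smallest in size in wt pool 1 for both Ccnd1 (-0.51) and Ccnd2 (-0.28), and reached -4.45 and -4.66 elsewhere. For Ccnd3 it ran from 1.08 to 1.87, a narrower range. Cdk4 was lower in ExE in 10 of 10 pairs, by a difference of -0.79 to -0.01, and Cdk6 in 9 and Cdkn1a in 8 of 10. Ccne1 was higher in ExE in 3 and lower in 7 pairs, Ccne2 higher in 8 and lower in 2, Cdkn1b higher in 4 and lower in 6, and Rb1 higher in 5 and lower in 5.

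Among the ExE pools, Ccnd1 was highest in those with the highest epiblast list, while Ccnd2 followed that order less closely. The ExE pools with the highest epiblast list were wt 1 at 7.50, Tet1gt/gt 4 at 7.17, wt 4 at 7.11 and Tet1gt/gt 3 at 6.97 log2 CPM, and they held the 4 highest Ccnd1 levels in ExE, 43.8, 18.8, 17.5 and 40.3 CPM in that order. Of these, Tet1gt/gt 3 is a library with a steep GC slope. Its list mean includes the highest Utf1 (933 CPM) and Pou3f1 (1071 CPM) in ExE, genes not called between the tissues. The part of the GC slope in its list and Ccnd1 values was not tested. The pool with the lowest list, Tet1gt/wt 3 at 5.01 log2 CPM, held the lowest levels of Ccnd1 (4.35 CPM) and Ccnd2 (1.23 CPM). Ccnd2 was highest in wt 1 (16.6 CPM), but wt 5, with a lower list than those 4 pools, had 10.5 CPM, above wt 4 (8.31 CPM), Tet1gt/gt 4 (5.79 CPM) and Tet1gt/gt 3 (4.33 CPM). Pou5f1, a pluripotency factor of the epiblast, was highest among the ExE pools in Tet1gt/gt 3 (394.5 CPM), followed by wt 1 (302 CPM). It was lowest there in Tet1gt/wt 3 (13.5 CPM). In E, the trophoblast list was highest in Tet1gt/wt 4 at 5.48 and Tet1gt/gt 3 at 4.91 log2 CPM, the pools with the highest Ccnd3 there, which are also libraries with steep GC slopes. Visceral endoderm markers (12 genes) ranged from -1.06 to 3.75 log2 CPM in ExE and from -0.96 to 5.25 in E, highest in pool 1 of wt in both. The part of such admixture in the tissue differences was not tested, and without wt pool 1 of both tissues the log2 fold change was -2.80 for Ccnd1, -3.10 for Ccnd2 and 1.47 for Ccnd3.

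**Figure D4:**
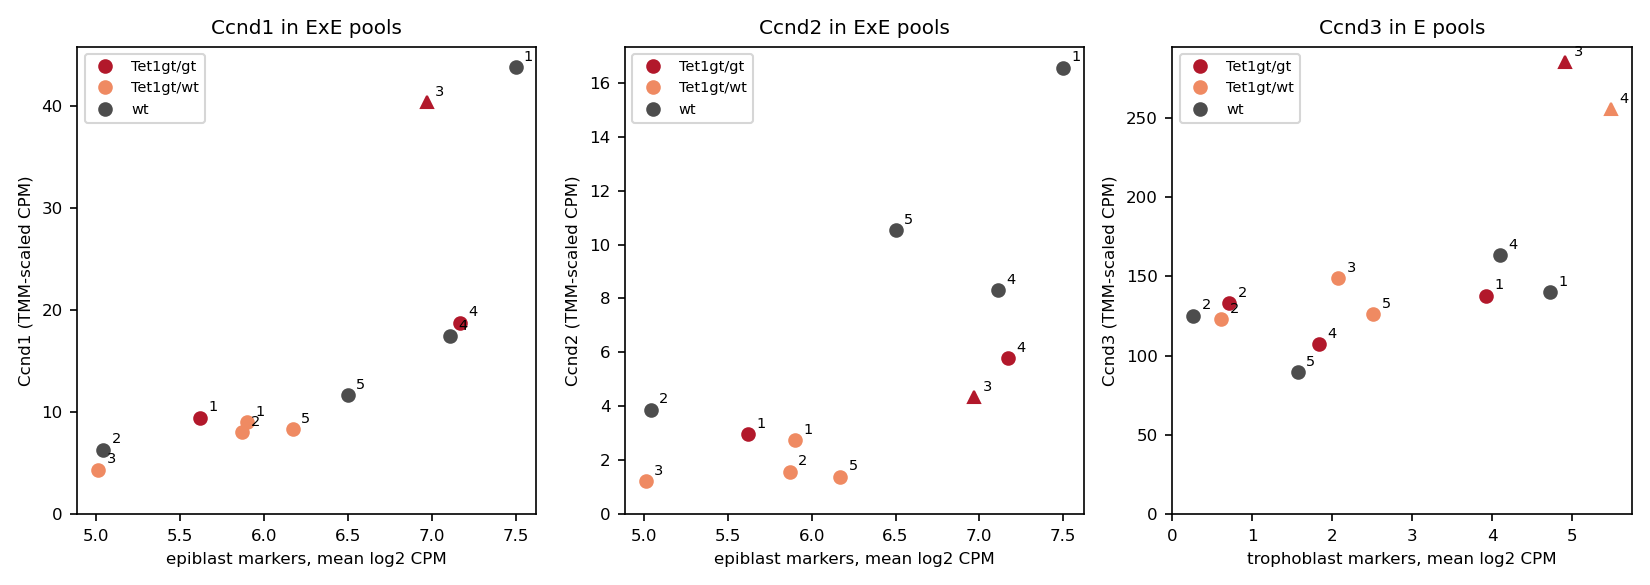
Level of Ccnd1 and Ccnd2 in the ExE pools against the mean of the epiblast markers (log2 CPM), and of Ccnd3 in the E pools against the mean of the trophoblast markers; numbers are pool numbers. ExE wt 1, at 7.50 on the epiblast axis, has the highest Ccnd1 (43.8 CPM) and Ccnd2 (16.6 CPM).

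For genes around these 10, counts stand beside the shares over all 13595 genes tested, 22.1% higher and 23.9% lower in ExE. The other CDK inhibitors rose in ExE in 3 of 5 cases and fell in 0 (edgeR, 5 of 5 at an unadjusted p under 0.05), with a median log2 fold change of 1.95. Within E alone 2 of these 5, Cdkn1c and Cdkn2d, passed the filter on low counts. Cdkn2a, Cdkn2b and Cdkn2c passed it through ExE, where they were high. Their direction, and with it the median, thus follows in part from the filter. Cdkn1c, which encodes p57 and is known for its role in trophoblast, had 2.37 ± 0.21, Cdkn2a, which encodes INK4A and ARF, 5.10 ± 0.86, and Cdkn2d 1.05 ± 0.18 (SE; adjusted p 8.77e-09, 7.81e-05 and 7.48e-05). Of 12 pocket protein, E2F and DP genes, 3 rose and 4 fell, with E2f8 at 0.74 ± 0.16, E2f1 at 0.63 ± 0.16 and Rbl1 at 0.80 ± 0.27 higher and Tfdp2 at -1.14 ± 0.21, E2f4 at -0.45 ± 0.09 and E2f5 at -0.71 ± 0.16 lower. Of 27 replication genes driven by E2F, 6 rose and 7 fell, with Rrm2 at 0.44 ± 0.06 and Mcm3 at -0.58 ± 0.08 having the smallest p in each direction, and both shares were near those over all genes. Of 7 tested S-phase CDK and CDK-activating genes 0 were called by edgeR, and 0 had an unadjusted p under 0.05. Of 11 ubiquitin ligase genes 2 rose, Skp1a (0.30 ± 0.07) and Fbxo4 (1.85 ± 0.54), and 0 fell, with 3 at an unadjusted p under 0.05.

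Of 17 tested p53 targets 4 rose and 5 fell in ExE, again near the shares over all genes (22.1% and 23.9%), with Perp at 4.01 ± 0.34 and Pmaip1, which encodes the cell death protein NOXA, at -3.16 ± 0.38 (SE; adjusted p 5.85e-09 and 6.92e-07, edgeR). Cdkn1a itself is not counted among those targets. Of 16 mitotic genes 4 rose and 1, Ttk at -0.79 ± 0.21, fell, and Ccnb2 led the rises at 0.61 ± 0.09. Of 10 genes that carry mitogen and MYC signals to the D-type cyclins 3 rose and 4 fell. The immediate early genes Fos (4.29 ± 0.58) and Egr1 (2.34 ± 0.69) and Myc (0.46 ± 0.09) were higher in ExE, while Mycn (-0.95 ± 0.10), Ctnnb1, which encodes beta-catenin (-0.59 ± 0.12), and Jun (-0.94 ± 0.30) were lower. Fos, 1 of the 3 rises, passed the filter on low counts in ExE and not in E alone. Its direction thus follows in part from the filter. The median log2 fold change was -0.41 for the pocket protein list, -0.05 for the replication list, -0.14 for the p53 list and -0.33 for the mitogen list, against -0.02 over all genes.

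By the likeness of log2 CPM over the 23 libraries, the gene closest to Ccnd1 was Igfbp2 (Pearson r = 0.987), followed by Pim2 (0.986) and Id3 (0.983). For Ccnd2 they were Sall2 (0.954), Ncs1 (0.951) and Flna (0.948), and for Ccnd3 Rbm38 (0.982), with Mybl2 and Slc25a4 next. For Cdk4 they were Vps72 (0.942), Psmc4 (0.936) and Prmt1 (0.935), and for Cdk6 Pald1 (0.917), Klhdc9 (0.897) and Cd276 (0.896). The closest gene to Cdkn1a was Rfc3 (0.840), to Ccne2 Eif2s1 (0.864), to Ccne1 Trmt2a (0.749), to Cdkn1b Rad54l (0.746) and to Rb1 Rpgrip1l (0.708). These values describe 23 libraries that share the tissue contrast and the GC slopes, and carry no p.

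The genotype comparisons gave 0 calls among the 10 genes within either tissue (edgeR, adjusted p). In ExE, Tet1gt/gt against wt had 0% of 12355 genes called and 0 members at an unadjusted p under 0.05, Tet1gt/wt against wt 0% and 2 members, and Tet1gt/gt against Tet1gt/wt 0% and 2 members. In E, Tet1gt/gt against wt had 0.0161% of 12405 genes called and 2 members at an unadjusted p under 0.05, Tet1gt/wt against wt 0% and 0 members, and Tet1gt/gt against Tet1gt/wt 0% and 1 member. limma-voom also called 0 members in these 6 comparisons, and DESeq2 called 1 in ExE (Ccnd2 in Tet1gt/wt against wt) and 0 in E. The comparisons with wt in a tissue share its wt pools.

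Ccnd2 in ExE had the smallest p of any member between genotypes. It averaged 4.36 ± 1.41 CPM in Tet1gt/gt (SD, n = 3), 1.73 ± 0.687 CPM in Tet1gt/wt (n = 4) and 9.82 ± 5.28 CPM in wt (n = 4). Every Tet1gt/wt pool (1.23 to 2.74 CPM) lay below every wt pool (3.88 to 16.6 CPM), while the Tet1gt/gt pools (2.97 to 5.79 CPM) overlapped with wt. Against wt the log2 fold change was -1.17 ± 0.58 in Tet1gt/gt (p 0.0618, adjusted p 0.684) and -2.47 ± 0.55 in Tet1gt/wt (p 0.000512, adjusted p 0.891), by edgeR. The second of these was called by DESeq2 (-2.49, adjusted p 0.0174) and in an edgeR fit of all 23 libraries (-2.49, adjusted p 0.0253), and not by limma-voom (-2.31, adjusted p 0.999). The epiblast markers averaged 5.01 to 6.17 log2 CPM in Tet1gt/wt ExE and 5.04 to 7.50 in wt ExE, and with their level as a covariate the log2 fold change was -1.82 (p 0.00329, adjusted p 1). ExE wt 2, with the lowest epiblast list of the wt ExE pools (5.04), had their lowest Ccnd2 (3.88 CPM), above all 4 Tet1gt/wt pools. That is 1 pool. With Zfp42, Utf1 and Pou3f1 in it, the list does not measure epiblast RNA alone, so the covariate is no test of admixture. The part of epiblast admixture in the Ccnd2 difference was not tested.

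Ccnd1 in ExE had -1.39 ± 0.55 in Tet1gt/wt against wt (log2 fold change ± SE, p 0.0242, adjusted p 1, edgeR). It was -0.64 without ExE wt pool 1 and -0.35 (p 0.389) with the epiblast markers as a covariate. In Tet1gt/gt against wt it had 0.17 ± 0.58. Against Tet1gt/wt, Tet1gt/gt ExE had 1.56 ± 0.59 for Ccnd1 (p 0.0184, adjusted p 0.73) and 1.29 ± 0.57 for Ccnd2 (p 0.0406, adjusted p 0.755), by edgeR. These became 0.67 and 0.72 with the covariate, and Ccnd1 had 0.92 without ExE Tet1gt/gt pool 3. Markers of decidua and blood (8 genes) averaged 0.50 to 2.86 log2 CPM in Tet1gt/gt ExE and -0.85 to 0.49 in wt ExE, and their part in these values was not tested. The other 8 members had fold changes in ExE with an unadjusted p over 0.05 in each genotype comparison.

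In E, Cdkn1a averaged 11.5 ± 4.59 CPM in Tet1gt/gt, 5.05 ± 2.23 CPM in Tet1gt/wt and 5.65 ± 1.51 CPM in wt (SD, n = 4 each). Every Tet1gt/gt pool (6.62 to 17.3 CPM) lay above every wt pool (3.39 to 6.57 CPM), though the nearest pools almost touched, and the Tet1gt/wt pools overlapped with both. The log2 fold change of Tet1gt/gt was 1.03 ± 0.44 against wt (p 0.0336, adjusted p 0.961) and 1.19 ± 0.44 against Tet1gt/wt (p 0.0167, adjusted p 1), by edgeR. With each E pool left out in turn the first of these ran from 0.75 to 1.21, with an unadjusted p of 0.0182 to 0.13 (edgeR). Its unadjusted p was 0.0989 with the replicate block, 0.0667 in a fit of all 23 libraries and 0.0594 without the steep libraries (edgeR). It was 0.0206 by DESeq2, 0.0377 by limma-voom and 0.0444 with a GC and length correction in edgeR. The visceral endoderm list (12 genes) averaged 0.25 to 4.10 log2 CPM in Tet1gt/gt E, -0.96 to -0.06 in Tet1gt/wt E and 0.43 to 5.25 in wt E. Against Tet1gt/wt, 9 of its 12 genes had an unadjusted p under 0.05 in Tet1gt/gt E, with a median log2 fold change of 4.065 and 0 calls (edgeR). Tet1gt/gt pool 2 had the highest Cdkn1a of the E pools (17.3 CPM) and the highest list of its group, and wt pool 1, with the highest list in E, had 6.57 CPM. The part of these markers in the Cdkn1a values was not tested. Cdk4 in E averaged 1023 ± 198 CPM in Tet1gt/gt, 962 ± 158 CPM in Tet1gt/wt and 786 ± 65.2 CPM in wt (SD, n = 4 each). Its log2 fold change against wt was 0.38 ± 0.16 in Tet1gt/gt (p 0.0265, adjusted p 0.961, edgeR). It was 0.25 (p 0.0119) without the steep libraries and 0.32 (p 0.00517) with a GC and length correction. With the replicate block it was 0.30 (p 0.153), and Cdk4 was called in none of these edgeR fits. Ccnd2 in E had 0.61 ± 0.33 in Tet1gt/gt against wt (p 0.0804), the opposite sign to ExE.

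**Figure D5:**
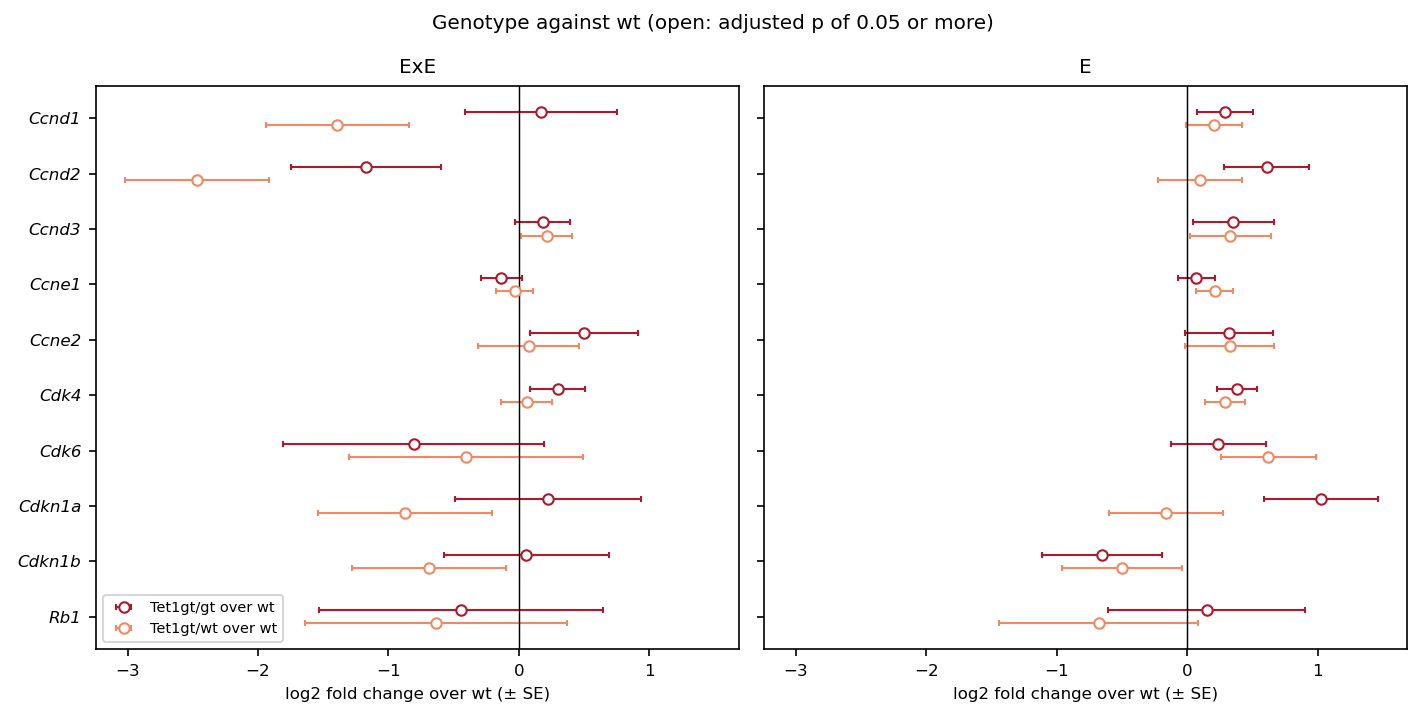
Log2 fold change ± SE of Tet1gt/gt and Tet1gt/wt over wt for each gene, in ExE (left) and E (right); open circles have an adjusted p of 0.05 or more. All circles are open, and Ccnd2 in Tet1gt/wt ExE lies farthest from 0, at -2.47.

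Whether the genotype effect differed between the tissues was tested by the difference of the ExE and E effects. For Tet1gt/gt against wt 0 members and 0% of 13595 genes were called (edgeR), with 1 member at an unadjusted p under 0.05, and for Tet1gt/wt against wt 0 members and 0%, with 2 members. For Ccnd2 the ExE minus E difference was -1.77 ± 0.59 in Tet1gt/gt (p 0.00631, adjusted p 1) and -2.58 ± 0.57 in Tet1gt/wt (SE; p 0.00016, adjusted p 0.243). The difference in Tet1gt/wt was called by DESeq2 (adjusted p 0.0126) and without ExE wt pool 2 (adjusted p 0.0478), and not by limma-voom (adjusted p 0.997). For Ccnd1 the difference in Tet1gt/wt was -1.62 ± 0.62 (p 0.0153, adjusted p 0.767), but -0.88 without ExE wt pool 1 (p 0.107) and -0.79 without wt pool 1 of both tissues (p 0.166). For Ccnd3 it was -0.15 ± 0.42 in Tet1gt/gt and -0.14 ± 0.40 in Tet1gt/wt. The smaller tissue difference of Ccnd2 in wt than in either trapped genotype was thus not called over all genes by edgeR.

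Of the 8 lists of genes around the cell cycle, 0 genes were called between Tet1gt/gt and wt in either tissue (edgeR). In E, the smallest p of the p53 list was that of Phlda3, at 1.01 ± 0.33 (log2 fold change ± SE, p 0.00908, adjusted p 0.961). Of the mitotic list, Ccnb2 (-0.42 ± 0.14), Aurkb (-0.41 ± 0.15) and Cdc25c (-0.55 ± 0.24) had an unadjusted p of 0.00876, 0.017 and 0.0389, and each an adjusted p of 0.961. Tk1 of the replication list had 0.63 ± 0.25 (p 0.0247), and Rbl1, which encodes the pocket protein p107, -1.03 ± 0.44 (p 0.0336). These 6 were all the list genes with an unadjusted p under 0.05 in E. In ExE, the replication list had Gins1 at 0.68 ± 0.19 (p 0.00361) and Mcm3, of the opposite sign, at -0.36 ± 0.15 (p 0.0264). Cdc25a had -0.50 ± 0.18 (p 0.0132), Rbx1 0.49 ± 0.19 (p 0.0237) and Bbc3, a p53 target, 1.16 ± 0.46 (p 0.025). Cdkn1c had 0.68 ± 0.29 (p 0.0342) and E2f8 -0.49 ± 0.23 (p 0.0492). These 7 were all the list genes with an unadjusted p under 0.05 in ExE, with adjusted p of 0.513 to 0.659.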

How the data were processed

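RNA of 23 pools was measured, in 6 groups of tissue and genotype. The submitters' processing notes name cutadapt 1.7.1, TopHat2 2.0.12 and build mm10 (GRCm38), and their design text adds FastX 0.0.13 and ShortRead 1.16.3 for trimming and filtering. How reads were counted (program, annotation, strand) is not given in the sources. The authors deposited raw counts per gene, not normalised. Of 23725 lines, 27 carried a symbol turned into a date, and 98.5% of symbols were matched to GENCODE M21 for positions and exon lengths. Counts of pools of a group differed beyond sampling noise (chi-square per degree of freedom 12.3 to 118), so none was taken as a repeat. A p-value here reflects the spread from pool to pool.

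Counts were tested with edgeR 4.0.16 in R 4.3.3 (filterByExpr, minimum count 10 and minimum total 15, TMM scaling, glmQLFit and glmQLFTest, two-sided), with Benjamini-Hochberg adjustment over all genes tested and a threshold of 0.05. The tissue comparisons and the ExE minus E differences came from a fit of all 23 libraries, and genotype comparisons from a fit of each tissue. Fold changes use a prior count of 0.125 and log2 levels a prior count of 2. DESeq2 1.42.0, limma 3.58.1 (voom), RLE scaling, no filter, a GC and length correction, a replicate block and leaving out each pool were the alternatives, and the code was tested on simulated data. Leaving out the 3 libraries with steep slopes was a further alternative, taken from an earlier analysis of these data. Leaving out wt pool 1 of both tissues, and the epiblast marker covariate, were chosen after seeing the data.

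Pool numbers pair E and ExE because the labels tie a shared number to shared litters for 3 of the 4 pools of a genotype. In wt all 4 numbers are shared, and since the labels do not say which is the exception, the block and the pairs use all 4. Deviations of same-numbered E and ExE pools correlated by -0.041 to 0.46, with a median of 0.07. The 0.46 came from pool 3 of Tet1gt/gt, where both libraries have steep GC slopes. Differently numbered E and ExE pools of a genotype correlated by -0.34 to 0.109, with a median of -0.018. The 10 members and the gene lists were chosen with earlier results of these data known. The members are given in each comparison whatever their p. From each list up to 3 rises and 3 falls of smallest p are eligible to be named for the tissues, and up to 3 genes of smallest p for Tet1gt/gt against wt, and for each member the 3 genes of highest correlation.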

Additional observations from a re-analysis of the deposited data

Results flagged for a closer look

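In 5 of the 50 combinations of a member and a group of 4 pools, 1 pool stood far from the other 3, with a gap that took up most of the range of the group. Chance sets apart about 1 in 20 such groups. Ccne1 had 464 CPM in E Tet1gt/gt pool 3, against 362 to 371 CPM in the other pools of that group. Cdk4 had 1198 CPM in E Tet1gt/wt pool 4, against 865 to 904 CPM. Both pools are libraries in which short and GC-rich transcripts read higher, and the part of that in these values was not tested. Ccne2 had 30.4 CPM in ExE wt pool 1, against 14.1 to 16.7 CPM in the other wt ExE pools. That pool also had the highest epiblast and visceral endoderm markers in ExE, while Ccne2 had 11.7 to 19.6 CPM in the wt E pools. The part of those markers in the Ccne2 value was not tested. Cdkn1a had 3.39 CPM in E wt pool 4, against 6.26 to 6.57 CPM, a low value on the wt side of the comparison with Tet1gt/gt. Rb1 had 12.8 CPM in ExE wt pool 2, against 0 to 2.02 CPM.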

How the results depend on the processing

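Over the tissue mean, 6 of the 10 genes were called in each of the alternatives except the GC and length corrections, which added Ccne2. Ccnd1, Ccnd2 and Ccnd3 kept their direction and their call in the tissue mean in all alternatives and with each of the 23 pools left out, with log2 fold changes of -2.77 to -2.39, -3.06 to -2.85 and 1.33 to 1.57 when pools were left out. In wt, the GC and length correction called 5 members in place of 3, adding Ccne2 (adjusted p 0.0478) and Cdk4 (adjusted p 0.0137). The share of all genes called in wt with that correction is not given here. Pools whose loss ended the calls of Cdk6 in Tet1gt/gt and Cdk4 in Tet1gt/wt are named with those calls. Cdk4 was called in Tet1gt/gt without ExE pool 3 (adjusted p 0.0165) and Cdkn1a in Tet1gt/wt without ExE pool 1 (adjusted p 0.0380). For Ccnd2 in Tet1gt/wt against wt, DESeq2 gave 1 call in ExE, and so did the fit of all 23 libraries, and DESeq2 gave 1 call for the ExE minus E difference, which with pools left out had 0 to 1. The cause of these changes was not tested. The share of Ccnd3 in E was 57.4% per length of the longest transcript and 55.2% with no length. The replicate block changed the calls given with the single genotypes above and no other call of a member: the tissue mean kept 6. Between genotypes of a tissue same-numbered pools correlated by -0.354 to 0.197, with a median of -0.014. Same-numbered E and ExE pools also had a low median (0.07), so these correlations cannot tell whether the numbers link genotypes. In the genotype comparisons the block left 0 members called. Over all genes, wt ExE against E had 2347 calls, 3509 with the block and 3672 without the steep libraries, Tet1gt/gt against wt in E 2, 17 by DESeq2 and 0 with the block, and the other genotype comparisons and differences 0 by edgeR and limma-voom and 3 to 29 by DESeq2. Cdk6, Cdkn1a, Cdkn1b and Rb1, and Ccnd2 in ExE, had few counts per library, and the part of depth in their errors was not tested.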
